A study of Homo sapiens with 10 samples.

Results

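The regions described here are the narrow ZMYND8 peaks at gene starts that the ChIP with an antibody to the protein gave and the ChIP of the FLAG-tagged protein did not. A peak was included when it was under 1000 bp wide, lay on chromosomes 1 to 22, overlapped no peak of the FLAG-ZMYND8 list by even 1 bp, and had its midpoint within 3 kb of the 5′ end of an annotated gene, here called the TSS. These criteria selected 3589 of the 15086 peaks of the ZMYND8 list. They were 50.1% of the 7162 narrow antibody peaks at gene starts, and over all 13739 narrow antibody peaks on these chromosomes the share overlapping no FLAG peak was 62.2%. The members were divided by the distance to the nearest FLAG peak, midpoint to midpoint. A FLAG midpoint lay within 1 kb of 1518 members, called FLAG-near, and not of the other 2071, called FLAG-distant. Presence in 1 list and absence from the other, the width, the distance to the TSS and the distance to a FLAG peak are therefore the values that the members were chosen by, and they are given as descriptions only.

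The study asked where ZMYND8 sits in the genome relative to acetylated histones. ZMYND8 was mapped in HEK293, a human embryonic kidney line, in chromatin fixed with formaldehyde and digested with micrococcal nuclease (MNase), and both factor data sets had 2 replicates. In the ZMYND8 samples, a commercial antibody against the protein was used on Flp-In T-REx HEK293 cells with stable expression of 3xFLAG-ZMYND8 or of its N228F mutant, and the labels do not say which. In the FLAG samples, 3xFLAG-ZMYND8 was made from an inducible transgene after 10 nM doxycycline and was pulled down with anti-FLAG. Both sets of samples thus came from lines with a tagged transgene, and an antibody to ZMYND8 can bind the tagged and the cells' own protein alike. There is 1 list per target, and how it was made from the replicates is not given in the sources used here. The lists give no counts and hold the score 1 in every row, so depth and the spread between replicates are unknown and width was the remaining measure of a peak.

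ZMYND8 is a chromatin reader whose PHD finger, bromodomain and PWWP domain form a unit that binds modified histone tails and DNA. It is known as a partner of the NuRD remodelling and deacetylase complex, of histone demethylases and of P-TEFb, the kinase that releases RNA polymerase II from pausing, and it gathers at transcribed chromatin around DNA breaks. Many human promoters lie in CpG islands, stretches that have kept their CpG dinucleotides and are mostly unmethylated, and acetylated nucleosomes usually flank the TSSs of active genes.

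The sequences of 6 members and of a FLAG neighbour show how much these regions differ in CpG content. All are hg19 (GRCh37) reference bases over the whole peak, printed 5′ to 3′ along the strand of the nearest gene, with each CpG in capitals. CREBBP, which encodes a histone acetyltransferase, had a member of 220 bp with 27 CpGs at chr16:3930939-3931158 (minus strand), between genes and 334 bp upstream of the TSS. ETS2, a transcription factor gene, had a member of 151 bp with 1 CpG at chr21:40175975-40176125 (plus strand), 1057 bp upstream. These are the members at the loci that the study examined singly.
CREBBP member: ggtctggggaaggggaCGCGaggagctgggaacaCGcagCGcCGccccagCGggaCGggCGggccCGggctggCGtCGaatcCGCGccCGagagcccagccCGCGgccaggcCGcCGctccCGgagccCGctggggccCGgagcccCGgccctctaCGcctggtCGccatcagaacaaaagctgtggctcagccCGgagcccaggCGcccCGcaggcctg
ETS2 member: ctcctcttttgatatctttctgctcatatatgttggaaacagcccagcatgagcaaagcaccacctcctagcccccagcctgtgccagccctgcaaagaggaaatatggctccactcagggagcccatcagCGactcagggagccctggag

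KAT2A, which encodes the acetyltransferase GCN5, showed the FLAG-near arrangement. Its member at chr17:40273545-40273695 (minus strand) lay 235 bp upstream of the TSS, in an intron of an overlapping annotation, and the FLAG peak at chr17:40274140-40274353 lay 444 bases farther upstream, with 626 bp between the midpoints. Each of these peaks held 6 CpGs, in 151 and 214 bp.
KAT2A member: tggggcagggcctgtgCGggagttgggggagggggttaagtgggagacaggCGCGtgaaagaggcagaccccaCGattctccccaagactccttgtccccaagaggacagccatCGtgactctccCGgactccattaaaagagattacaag
KAT2A FLAG neighbour: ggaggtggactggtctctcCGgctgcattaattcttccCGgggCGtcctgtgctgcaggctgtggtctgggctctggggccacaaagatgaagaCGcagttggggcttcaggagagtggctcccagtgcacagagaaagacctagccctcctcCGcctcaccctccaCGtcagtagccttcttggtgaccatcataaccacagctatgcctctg

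The other 3 sequences are FLAG-distant members. The member of KDM1B, an H3K4 demethylase gene, was intronic at chr6:18155891-18156041 (plus strand), 406 bp downstream. PTGER3, a prostaglandin receptor gene, had its member at chr1:71513530-71513722 (minus strand), 127 bp upstream and between genes. ZNF160, a zinc finger gene chosen here after its values were seen, had an intronic member at chr19:53606111-53606261 (minus strand), 501 bp downstream. The peaks held 8, 12 and 13 CpGs in that order, and the nearest FLAG midpoints were 13274, 633561 and 159887 bp away.
KDM1B member: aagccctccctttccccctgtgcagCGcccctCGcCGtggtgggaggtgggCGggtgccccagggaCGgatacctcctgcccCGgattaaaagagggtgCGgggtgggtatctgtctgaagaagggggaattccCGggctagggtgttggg
PTGER3 member: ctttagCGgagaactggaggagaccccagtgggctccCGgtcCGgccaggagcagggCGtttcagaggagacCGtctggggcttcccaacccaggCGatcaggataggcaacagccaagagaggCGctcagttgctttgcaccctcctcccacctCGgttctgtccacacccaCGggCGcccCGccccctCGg
ZNF160 member: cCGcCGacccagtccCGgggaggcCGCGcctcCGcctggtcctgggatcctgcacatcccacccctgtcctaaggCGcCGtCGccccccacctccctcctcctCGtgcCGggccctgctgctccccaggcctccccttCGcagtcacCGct

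The antibody-only peaks gathered just downstream of the TSS. Their fullest 200 bp bin was the one from 0 to 200 bp downstream, with 619 peaks or 17.2%, and it was also the fullest bin of the FLAG-near members (18.1%) and of the FLAG-distant members (16.6%). The median distance from the TSS was 480 bp, with quartiles of 191 and 1289 bp. Within 1 kb of the TSS lay 2466 members (68.7%, 95% Wilson interval 67.2 to 70.2%), and 460 (12.8%) were within 100 bp. Of the 2466, 1636 were downstream, a share of 66.3% (64.5 to 68.2%). Intervals here and below cover the counting error of peaks only, since peaks of 1 list are not replicates.

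**Figure D1:**
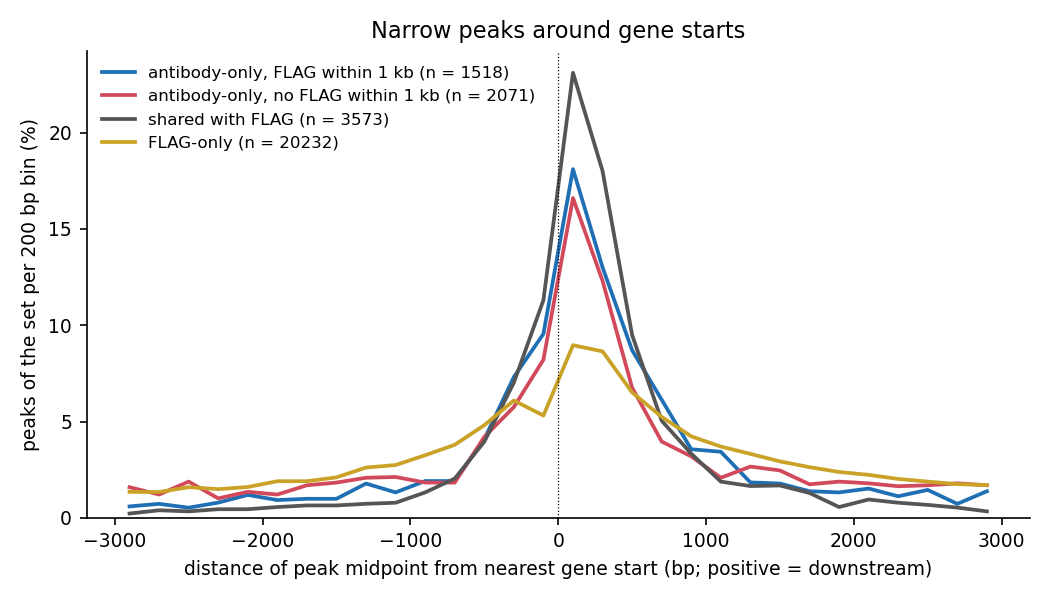
Percent of each set of narrow peaks per 200 bp bin (y) against the distance of the midpoint from the nearest TSS in bp, positive downstream (x), for the FLAG-near and FLAG-distant antibody-only peaks, narrow antibody peaks shared with the FLAG list and narrow FLAG-only peaks. All 4 lines are highest from 0 to 200 bp downstream, at 18.1, 16.6, 23.1 and 8.96%, and only the FLAG-only line is lower from 200 to 0 bp upstream (5.31%) than in the bin before it (6.09%).

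The narrow antibody peaks that did overlap a FLAG peak, 3573 in all, had 84.5% of their midpoints within 1 kb of a TSS, against 68.7% of the members, a description since TSS distance entered the choice. Their downstream share within 1 kb was 69.5%, 3.21 percentage points above that of the members (95% Newcombe interval 0.726 to 5.69). This difference in side was within the counting error among peaks wider than the minimum, where it was 1.74 points (-1.46 to 4.99), and among peaks nearest to a protein-coding TSS, where it was 2.13 points (-0.702 to 4.98). The 20232 narrow peaks found only with FLAG had 56.9% within 1 kb of a TSS. There 59.0% were downstream, 7.30 points below the members (5.21 to 9.35). From 200 to 0 bp upstream lay 8.78% of the members against 6.41% in the next bin out, whereas FLAG-only peaks had 5.31% and 6.09%.

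FLAG-near and FLAG-distant members lay on the same side to within the counting error. Downstream shares within 1 kb were 66.5% (750 of 1127) and 66.2% (886 of 1339), a difference of 0.380 points with an interval from -3.37 to 4.11. Within 1 kb of the TSS lay 74.2% of the FLAG-near and 64.7% of the FLAG-distant members, and within 100 bp 13.0 and 12.7%, given without a test because both distances chose or divided the members.

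Introns held the midpoints of 1361 members (37.9%), and 748 (20.8%) lay between annotated genes. Untranslated exons held 659 (18.4%), non-coding exons 432 (12.0%) and coding exons 389 (10.8%). Members thus lay in an untranslated exon less often than shared narrow peaks, by 5.34 points (3.46 to 7.23), and between genes more often, by 5.36 points (3.58 to 7.14). Coding exons held 10.8% of the FLAG-near and 10.9% of the FLAG-distant members, whereas untranslated exons held 22.7 and 15.2%, a difference of 7.45 points (4.86 to 10.1). The distance to the TSS, which entered the choice of the members, also differed between these sets. Its part in the differences of this paragraph was not tested, so they are descriptions.

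A majority of the members had CpG-rich centres. A peak was called CpG-rich when the 200 bp around its midpoint had at least 50% G+C and at least 0.6 of the CpGs expected from its C and G content, the usual composition of a CpG island over a shorter stretch. By this measure 2052 of the 3589 members were CpG-rich (57.2%, 55.5 to 58.8%), with a median G+C of 64.0%. The share was 75.8% among the shared narrow peaks, 18.6 points higher (16.5 to 20.8). It was 39.3% among FLAG-only peaks at starts, 17.9 points below the members (16.1 to 19.6). The antibody-only peaks at starts were therefore between the shared and the FLAG-only peaks in composition. FLAG-only peaks at starts also lay within 1 kb of a TSS less often (56.9 against 68.7%), and the part of this was not tested. Among the 4953 narrow antibody-only peaks far from starts the CpG-rich share was 12.0%, a description since TSS distance separates them from the members.

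Part of the gap to the shared peaks went with position and width. From 0 to 1 kb downstream, 76.3% of 1636 members and 82.7% of 2099 shared peaks were CpG-rich, 6.42 points apart (3.81 to 9.05). From 1 kb to 0 upstream the values were 63.7 and 77.2%, 13.5 points apart, and over 1 kb from the TSS they were 24.5 and 47.4%, 22.9 points apart. Among peaks wider than the minimum, the shares were 73.0 and 80.9%, a gap of 7.89 points (5.23 to 10.6). At the minimum width they were 45.2 and 62.5%, a gap of 17.3 points (13.6 to 21.0). The intervals left 0 in each of these strata, although on chromosome 19 alone, with 269 members and 146 shared peaks, the gap was 5.16 points and its interval (-4.65 to 14.5) held 0.

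FLAG-near members were the more CpG-rich kind. Of them 1002 (66.0%) and of the FLAG-distant members 1050 (50.7%) passed, a difference of 15.3 points (12.1 to 18.5). The difference was 7.11 points (2.99 to 11.2) from 0 to 1 kb downstream, 10.6 points (4.0 to 16.9) from 1 kb to 0 upstream and 17.0 points (11.5 to 22.5) farther out. Median G+C was 67.5 and 62%. At the minimum width the shares were 56.7 and 37.6%, and among wider peaks 76.6 and 70.0%, so the gap was smaller for the wider peaks.

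**Figure D2:**
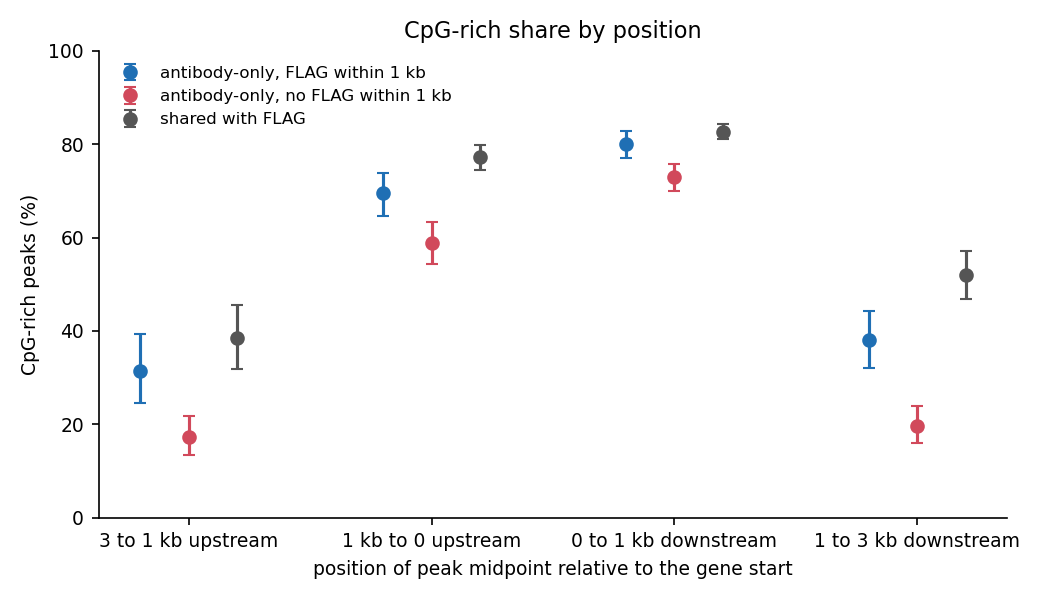
Percent of peaks with CpG-rich centres (y, points with 95% Wilson intervals) by position of the midpoint relative to the TSS (x), for FLAG-near and FLAG-distant antibody-only peaks and for narrow peaks shared with the FLAG list. The share is highest from 0 to 1 kb downstream, at 80.1, 73.0 and 82.7%, and in each of the 4 positions the FLAG-distant peaks are the lowest.

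The CpG-rich share did not simply fall with distance from a FLAG peak. It was 67.9% (64.5 to 71.1%) with a FLAG midpoint up to 500 bp away and 64.1% (60.6 to 67.4%) from 500 bp to 1 kb. From 1 to 3 kb and from 3 to 10 kb it was 45.6% (42.1 to 49.1%) and 46.6% (42.0 to 51.3%), the lowest values. It was 54.6% (50.9 to 58.3%) from 10 to 100 kb and 71.1% (63.4 to 77.8%) among the 149 members over 100 kb from any FLAG midpoint. Distance to the TSS moved in the same way, with 55.1% within 1 kb of the TSS in the 1 to 3 kb band and 86.6% (80.2 to 91.1%) over 100 kb. The part of TSS distance in the CpG-rich shares was not tested. The nearest TSS was that of a protein-coding gene for 72.0% of members in the closest band and 54.8 to 62.4% in the bands beyond 1 kb.

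**Figure D3:**
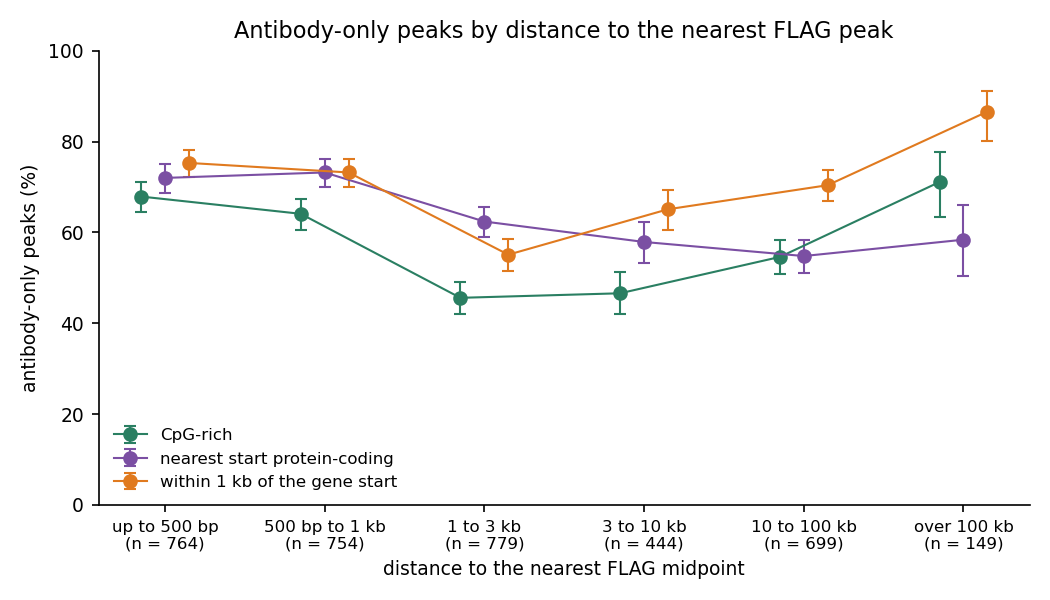
Percent of antibody-only peaks at gene starts (y, points with 95% Wilson intervals) that were CpG-rich, had a protein-coding nearest TSS or lay within 1 kb of the TSS, by distance to the nearest FLAG midpoint (x, number of peaks under each band). The CpG-rich share runs from 67.9% in the closest band through 45.6% at 1 to 3 kb to 71.1% over 100 kb.

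The letters of 9 promoter motifs were searched on both strands in the same 200 bp centres. The GC box (GGGCGG), which itself holds a CpG, was in 1417 members (39.5%), against 47.4% of shared peaks and 46.9% of 200 bp windows centred on all 19229 protein-coding TSSs. It was in 45.8% of FLAG-near and 34.8% of FLAG-distant members, 11.0 points apart (7.79 to 14.3). The letters CCGGAAG, the core bound by ETS factors, which also hold a CpG, were in 5.49% of members and 7.19% of shared peaks, a difference of -1.70 points for the members (-2.84 to -0.575), and in 10.2% of the windows on protein-coding TSSs. CCAAT was in 13.8% of members and 12.3% of shared peaks, with an interval of the difference from 0.00105 to 3.12 points, and in 25.6% of the windows on protein-coding TSSs. TATAAA was in 1.67% of members, 1.40% of shared peaks and 7.13% of those windows. The windows are centred on the TSS itself, whereas members lay a median of 480 bp from it, so the 2 are not compared at like positions. For the TATA box (TATAAA), the E-box with the letters CACGTG, the cAMP response element (TGACGTCA), the cores bound by NRF1 (GCGCATGC) and by YY1 (AAGATGGC) and the AP-1 site (TGACTCA), the intervals of the difference between members and shared peaks held 0. Of the peaks printed above, those at CREBBP, KDM1B and PTGER3 held a GC box within the peak.

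The FLAG-near members were commonly offset from their FLAG neighbour by less than 1 kb, as the criterion requires. Their median distance, midpoint to midpoint, was 499 bp with quartiles of 337 and 703 bp, and the closest was 163 bp. No more than 100 bp separated the edges in 388 of them (25.6%). The FLAG neighbour had a median width of 210 bp and was at the 167 bp minimum of its list in 657 cases (43.3%). A single FLAG midpoint lay within 1 kb of 1168 members (76.9%), and 301 (19.8%) had FLAG midpoints on both sides. The lists also differed in spacing, since the closest midpoints were 1000 bp apart in the ZMYND8 list and 332 bp in the FLAG list, where 17855 peaks had another under 1 kb away. Several FLAG peaks, but not several antibody peaks, could thus lie within 1 kb of each other at a TSS.

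The side of the FLAG neighbour depended on where the member lay. Over all FLAG-near members it was downstream, in the direction of the gene, in 788 of 1518 (51.9%, 49.4 to 54.4%). For the 377 members under 1 kb upstream of the TSS it was downstream in 62.1% (57.1 to 66.8%). For the 750 under 1 kb downstream it was downstream in 47.3% (43.8 to 50.9%), a difference of 14.7 points (8.59 to 20.7). An upstream member therefore had its FLAG neighbour toward the TSS and gene body more often, as at ARL1, where a member centred 147 bp upstream had a FLAG peak centred 620 bp downstream of it. FLAG peaks are themselves densest downstream of the TSS, and the part of that density in the difference was not tested.

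**Figure D4:**
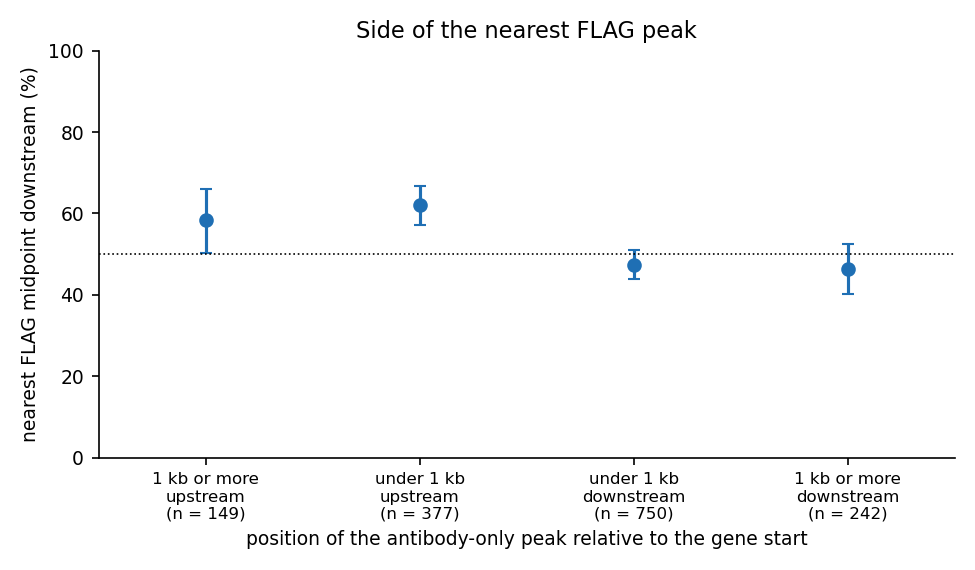
Percent of FLAG-near antibody-only peaks whose nearest FLAG midpoint lies downstream of the peak in the direction of the gene (y, points with 95% Wilson intervals, dotted line at 50%), by position of the peak relative to the TSS (x, number of peaks in brackets). The share is 62.1% under 1 kb upstream and 47.3% under 1 kb downstream of the TSS.

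Among the FLAG-distant members, 779 (37.6%) had a FLAG midpoint within 3 kb, 848 (40.9%) had none within 10 kb and 149 (7.19%) had none within 100 kb. The 6 farthest of those nearest to a protein-coding TSS lay at CADM2, CSMD1, ZNF804A, FSIP2, SUCLG2 and PTGER3. CADM2, a neuronal adhesion molecule gene, had a member of 151 bp in an untranslated exon, 123 bp downstream of the TSS (chr3:85008188-85008338), and the next FLAG midpoint was 2009685 bp away. At CSMD1, a complement regulator gene, it was 1311161 bp away, and at ZNF804A, a zinc finger gene known from brain, 1144294 bp. Members at FSIP2, a sperm tail protein gene, and SUCLG2, a succinyl-CoA synthetase subunit gene, lay in coding exons 156 and 80 bp downstream. With the exception of CSMD1, at 1236 bp, these 6 members were within 156 bp of their TSS.

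The members were mostly narrow even among narrow peaks. At the 151 bp minimum of the list lay 2042 members (56.9%), against 27.8% of the shared narrow peaks, and the upper quartile was 230 bp against 509 bp. This is a description, since a wider peak has more bases with which to meet a FLAG peak. FLAG-near members were at the minimum in 53.3% and FLAG-distant members in 59.5%. At the edges of the criteria, the widest member had 996 bp and the narrowest antibody-only peak left out 1004 bp, with 61 left out by width. There were 217 members from 2.5 to 3 kb from the TSS and 201 antibody-only narrow peaks from 3 to 3.5 kb, 53 members had a gap of up to 10 bp to a FLAG peak, and 55 shared peaks overlapped one by up to 10 bp. The farthest FLAG midpoint counted as near was 999 bp away and the closest counted as distant 1001 bp.

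Among FLAG-near members whose nearest TSS was that of a protein-coding gene, the 6 widest were at PFKFB3, TCF25, ARL1, ULBP1, GLO1 and VPS16. At PFKFB3, which encodes a regulator of glycolysis, the member covered 996 bp with 108 CpGs (chr10:6186907-6187902) from just after the TSS into the first part of the gene, and a FLAG peak of 167 bp ended 229 bp before it. At TCF25 the member of 988 bp was separated from a FLAG peak by 2 bp. ARL1, a Golgi GTPase gene, and GLO1, a glyoxalase gene, had members of 963 and 900 bp with G+C at the centre of 44 and 45%, low for this group. ULBP1, which encodes a ligand recognised by natural killer cells, and VPS16, an endosomal tethering gene, had members of 932 and 883 bp. The gaps to the FLAG peak in these 6 ran from 2 bp at TCF25 through 40 bp at GLO1, 55 bp at ARL1, 141 bp at VPS16 and 229 bp at PFKFB3 to 295 bp at ULBP1, and the FLAG peaks were 167 to 347 bp wide.

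The 6 widest FLAG-distant members nearest to a protein-coding TSS were at TFDP1, ZC3H3, SLC66A1, ZNF264, MBTPS1 and IFIT5. The member at TFDP1, the partner of E2F factors in the cell cycle, had 994 bp and 159 CpGs (chr13:114238789-114239782), centred 249 bp downstream of the TSS with a FLAG midpoint 2018 bp away. At SLC66A1, a lysosomal amino acid transporter gene, the member had 974 bp and 113 CpGs, and the next FLAG midpoint was 26911 bp away. Those at ZNF264, a zinc finger gene, and IFIT5, an interferon-induced gene, had 974 and 947 bp with FLAG midpoints 19159 and 23799 bp away. At ZC3H3, which encodes a zinc finger protein of mRNA export, the distance was 12440 bp. MBTPS1, the protease that processes SREBP, had a member of 951 bp centred 8 bp upstream of the TSS and a FLAG midpoint 1556 bp away. The G+C of these 6 centres was 64.0 to 84.0%.

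Protein-coding genes held the nearest TSS of 2315 members (64.5%), lncRNA genes of 840 (23.4%), pseudogenes of 228 (6.35%) and small RNA genes of 173 (4.82%). Shared narrow peaks were at protein-coding TSSs in 73.6%, 9.08 points more (6.94 to 11.2), and at pseudogenes in 2.27%, 4.09 points less (3.16 to 5.04). The protein-coding gap was 3.86 points (1.10 to 6.64) from 0 to 1 kb downstream and 12.4 points (7.39 to 17.3) over 1 kb out. It was 3.72 points (0.905 to 6.58) among peaks wider than the minimum and 12.5 points (8.95 to 15.9) at the minimum. Narrow FLAG-only peaks at starts were at pseudogenes in 5.67%, where the difference from the members (0.679 points, -0.142 to 1.58) was within the counting error. They were at protein-coding TSSs in 61.1%. Among the members the contrast was between the 2 kinds. FLAG-near members were nearest to a protein-coding TSS in 72.6% and FLAG-distant members in 58.6%, 14 points apart (10.9 to 17.1). From 0 to 1 kb downstream they were 8.22 points apart (3.98 to 12.4), and over 1 kb out 17.4 points (11.3 to 23.3). Pseudogenes accounted for 2.90 and 8.88% of the 2 kinds, 5.99 points apart (4.48 to 7.48). Pseudogenes resemble their parent genes, and how the authors treated reads that map to several places is not given in the sources used here.

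Counted by gene, 2927 of 19229 protein-coding genes (15.2%) had a member within 3 kb of the TSS. For 2610 of them (89.2%) the member was the sole kind of antibody peak there, and 280 (9.57%) had a shared narrow peak as well. No FLAG midpoint lay within 3 kb of the TSS at 876 genes, which were 29.9% of those with a member and 4.56% of all. More than 1 member was found at 166 genes. PANK4, of the pantothenate kinase family, and MEOX1, a homeobox gene, each had 3 FLAG-distant members, with 0 and 1 FLAG midpoints at the TSS. ANTKMT, a mitochondrial lysine methyltransferase gene, had 2 FLAG-near members and 1 FLAG-distant, and AC005606.1 had 1 and 2. PRDM16, which encodes a regulator of brown fat, had 2 members and no FLAG midpoint. It is 1 of many genes tied at 2 members, since only 4 of the 166 had 3 or more.

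At the loci the study showed, CREBBP and ETS2 had a member and CLCN7, PPP4C, SLC7A5 and ZMYND8 itself had none. The CREBBP member was the sole antibody peak there, and a FLAG peak of 524 bp was centred 1381 bp away on the gene side. At ETS2 a second antibody peak lay 1353 bp from the member, and the FLAG peak of 570 bp was centred 1497 bp away. CLCN7 and PPP4C had 0 antibody peaks of any kind and 1 and 3 FLAG midpoints, and SLC7A5 and ZMYND8 had 1 antibody peak each with 3 and 4 FLAG midpoints.

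Genes of chromatin regulators gave small counts. Members were at 6 of 17 acetyltransferase genes and cofactors (35.3%, 17.3 to 58.7%), against 15.2% of all protein-coding genes. An antibody peak of some kind was at 10 of the 17, against 34.9% of all protein-coding genes. EP300, the paralogue of CREBBP, had a member of 330 bp centred 269 bp downstream with no FLAG midpoint at the TSS, the nearest being 17244 bp away. ING5, a subunit that reads H3K4 methylation for acetyltransferase complexes, had a FLAG-near member of 832 bp, 303 bp downstream. TADA2B and TADA2A, adaptors that work with KAT2A, had members of 151 bp at 2085 and 2339 bp downstream, each nearer to another gene's TSS. CREBBP and KAT2A complete the 6, and for each of these genes the member was the sole antibody peak at the TSS.

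Of 13 NuRD genes, CDK2AP1 alone had a member (7.69%), against 15.2% of all protein-coding genes. An antibody peak of some kind was at 8 of the 13 and a FLAG midpoint at 12, against 34.9 and 59.5% of all protein-coding genes. Demethylase and CoREST genes had members at 2 of 11, KDM1B and RCOR2, a CoREST scaffold gene whose member of 380 bp lay 1305 bp upstream. BET and P-TEFb genes had members at 2 of 10. HEXIM2, an inhibitor of P-TEFb, had a FLAG-near member 753 bp downstream whose edge was 23 bp from the FLAG peak, and BRD3, a BET bromodomain gene, had one 2334 bp downstream. With 10 to 17 genes each, the intervals for these 4 lists span 1.37 to 58.7%.

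Among genes for housekeeping complexes, the shares with a member lay on both sides of the 15.2% of all protein-coding genes. Proteasome subunit genes had members at 11 of 38 (28.9%, 17.0 to 44.8%), an interval above that share. An antibody peak of some kind was at 18 of the 38, against 34.9% of all protein-coding genes. At 5 genes with a member (13.2% of the list, 5.75 to 27.3%) no FLAG midpoint was at the TSS, against 4.56% of all genes. PSMD11, with a member 397 bp upstream, was among these 5. PSMD3 and PSMA2 had members 78 and 145 bp downstream, and PSMA5 had 2 members. Mitochondrial ribosomal protein genes had members at 15 of 78 (19.2%), 8 of them without FLAG. At MRPL20 the member had 645 bp and 72 CpGs, at MRPS9 the nearest FLAG midpoint was 163930 bp away, and MRPS21 and MRPS26 had FLAG-near members. Cytosolic ribosomal protein genes had members at 12 of 75 (16.0%), and those at RPL26, RPS19 and RPS18 were FLAG-near and 163 to 241 bp downstream. RNA polymerase II subunit genes had 3 of 12, at POLR2I, POLR2A and POLR2F, and complex I genes had 4 of 35, at NDUFB9, NDUFS7, NDUFS8 and NDUFA4.

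Against the 15.2% of all protein-coding genes, break repair genes had members at 6 of 29 (20.7%), and the interval of each list in this paragraph holds the share over all genes. EXO1, a resection nuclease gene, had one 19 bp from the TSS and no FLAG midpoint there. XRCC2, a recombination repair gene, had one of 905 bp, RNF168, a ubiquitin ligase gene of the break response, one 316 bp downstream, and BRCA1 one 681 bp upstream of the 5′ end in this annotation. Immediate early genes had members at 3 of 21 (14.3%), IER2, EGR1 and KLF6, and the last of these lay 2595 bp from the TSS. HOX genes had members at 4 of 39 (10.3%), HOXA7, HOXA11, HOXA10 and HOXC13, where HOXA11 and HOXA10 share 1 peak. For FOX, SOX, PAX and TBX genes it was 13 of 81 (16.0%). Of these, TBX2 and FOXI3 had FLAG-near members, whereas TBX21 and FOXA1 had FLAG-distant members and no FLAG midpoint at the TSS. Clustered histone genes had members at 8 of 66 (12.1%), among them H1-4, H3C2, H4C4 and H2BC21, and reads from such near-identical genes can be uncertain.

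**Figure D5:**
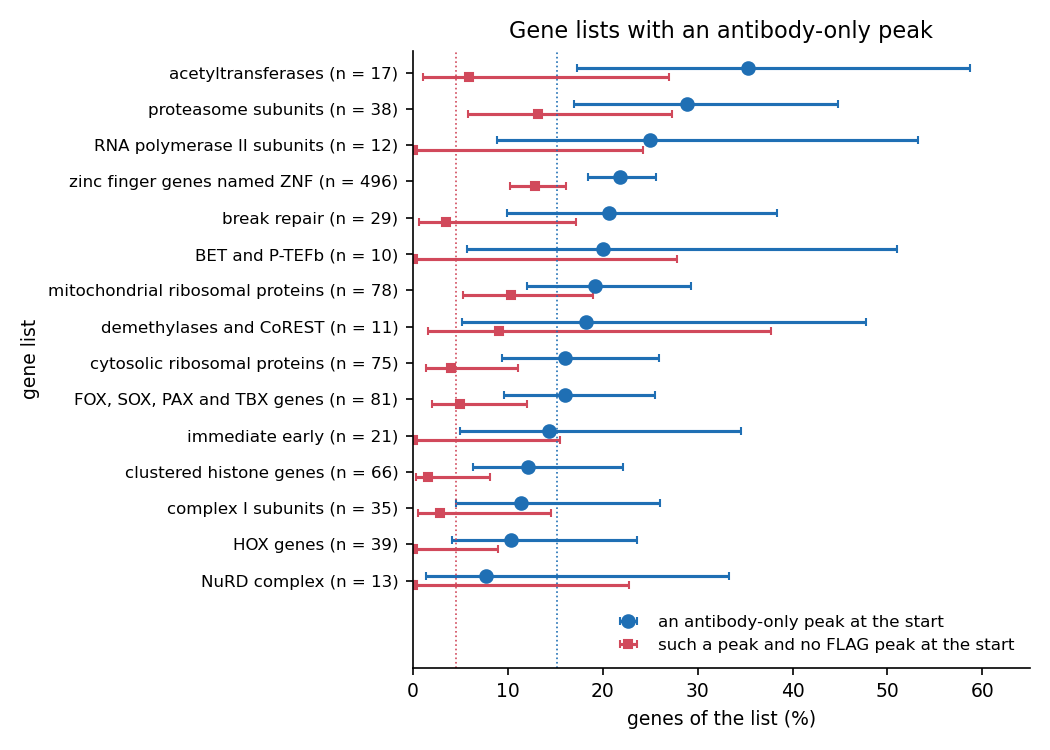
Percent of the protein-coding genes of each of 15 lists (rows, with the number of genes) that have an antibody-only narrow peak within 3 kb of the TSS (circles) or such a peak and no FLAG midpoint there (squares), with 95% Wilson intervals. Dotted lines mark the shares over all protein-coding genes, 15.2 and 4.56%, and the ZNF genes stand at 21.8 and 12.9%.

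Zinc finger genes named ZNF, many of which encode repressors with a KRAB domain, were the largest list. Members were at 108 of 496 (21.8%, 18.4 to 25.6%), and 64 (12.9%, 10.2 to 16.1%) had a member and no FLAG midpoint, against 4.56% of all genes. Members lay 16, 19, 32 and 38 bp from the TSS at ZNF778, ZNF302, ZNF45 and ZNF706. The one at ZNF302 had 929 bp and 86 CpGs, with the next FLAG midpoint 95470 bp away, and at ZNF45 that distance was 107730 bp.

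ZNF genes on chromosome 19, where this family forms clusters, were then counted apart from the others, a division made after the values were seen. Of 246 such genes 58 (23.6%) had a member, of 250 ZNF genes elsewhere 50, and of 1234 other genes on chromosome 19 198 (16.0%). FLAG midpoints were at 31.3% (25.8 to 37.3%) of the chromosome 19 ZNF TSSs, 64.0% (57.9 to 69.7%) of the other ZNF TSSs and 56.7% (53.9 to 59.5%) of the other chromosome 19 TSSs. Antibody peaks of any width were at 29.7% (24.3 to 35.7%) of the chromosome 19 ZNF TSSs. For the other ZNF TSSs it was 46.0% (39.9 to 52.2%), and for the other chromosome 19 TSSs 27.5% (25.1 to 30.0%). Only against the other ZNF TSSs was the antibody share thus lower. A member without FLAG was found at 17.5% of chromosome 19 ZNF genes, 8.40% of the others and 4.54% of the remaining genes on chromosome 19. In peaks, 41 of the 47 narrow antibody peaks nearest to a ZNF gene on chromosome 19 were members (87.2%, 74.8 to 94.0%), against 228 of the other 368 on that chromosome and 49.2% on the remaining chromosomes. Overlap with the FLAG list chose the members, so these shares of peaks are descriptions only. The ZNF genes are related in sequence, and the part of read mapping in the shares of this paragraph was not tested.

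The antibody-only share of narrow peaks at starts differed along the genome. It was highest on chromosome 21, with 57 members and 25 shared peaks (69.5%, 58.9 to 78.4%), followed by chromosome 19 with 64.8% (60.1 to 69.3%) and chromosome 22 with 62.1% (55.1 to 68.6%). Chromosome 4 was lowest, with 83 members and 166 shared peaks (33.3%, 27.8 to 39.4%), and chromosomes 18 and 14 had 38.9 and 39.2%. Over chromosomes 1 to 22 together the share was 50.1%. Overlap with the FLAG list chose the members, and the chromosomes named were picked by their share, so these values are descriptions only.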

How the data were processed

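ChIP-seq of ZMYND8 and FLAG-ZMYND8 was done in 2 replicates each. The authors aligned reads to hg19 with BWA-MEM and used HOMER, and deposited 1 BED list per target. The score column they deposited holds 1 throughout, and the other deposited columns hold positions and names. Peak-calling settings and the treatment of replicates are not given in the sources used here. H3K14ac, H3K27ac and input samples were not used here.

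Positions were converted to 1-based coordinates. Peaks were assigned to the nearest of 64486 gene starts of GENCODE release 44 on GRCh37, and sequence was read from that genome. Counts by gene took any member within 3 kb of the TSS, also where another gene's TSS was nearer, as at IER2 and POLR2A. Shares carry 95% Wilson intervals and differences Newcombe intervals. With 1 list per target, no test against replicate spread was possible, and the depth is unknown. Members, lists and comparisons were chosen with earlier results of these data known. Genes named are the study's loci, the widest peaks, those farthest from FLAG, the starts with most members, and listed genes ordered by distance, of which some items are not reported here. The functions were tested on simulated lists. Python 3.11.15, numpy 2.4.6, pandas 2.3.3, pysam 0.24.0 and matplotlib 3.10.9 were used.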

Additional observations from a re-analysis of the deposited data

How the results depend on the processing

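Of 84 values recomputed under alternatives, 76 gave the same call. Some of these could not differ. The downstream shares use only peaks within 1 kb, so the window of 1 kb repeats their main differences (-3.21 and 0.380 points). The count of 2927 genes is likewise fixed with protein-coding gene starts only or with transcript starts. A call is an interval that leaves 0, or 50% for the side of the FLAG neighbour, and counts of genes had to stay within 1.5 times. Called values also had to keep their direction, whereas values without a call counted as the same in either direction. The difference in downstream share between FLAG-near and FLAG-distant members, never called, ran from -1.42 to 1.57 points. The CpG-rich gap to the shared peaks stayed between 7.89 and 22.8 points, and that between FLAG-near and FLAG-distant members between 6.54 and 20.9 points. The difference in downstream share between members and shared peaks no longer left 0 with protein-coding gene starts only (-1.81 points) or with peaks wider than the minimum (-1.74). The FLAG neighbour was downstream in 53.2% with protein-coding gene starts only, 54.0% for wider peaks, 52.2% when sharing needed a 50% reciprocal overlap and 53.7% with FLAG midpoints within 500 bp, each with an interval above 50%. Genes with a member numbered 1426 for wider peaks and 4836 under the 50% reciprocal overlap, settings that change how many peaks are members (1547 and 5702). Leaving out chromosome 19, chosen after seeing the data, changed no call. No paired analysis was possible because each target has 1 list without replicates. The lists hold no counts, so what depth limits cannot be given, and absence from the FLAG list does not show absence of binding.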
